A study of Mus musculus with 16 samples.

Results

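Caput epididymis of castrated mice was compared with that of sham-operated mice, both given vehicle only. The comparison used 4 of the 16 arrays of the series, 2 labelled castrated and 2 labelled sham-castrated, and covered the 13882 of 18193 measured genes whose mean intensity was above 16 in the sham or in the castrated group. Of these, 12428 were above 16 in both groups, 870 only in the sham group and 584 only in the castrated group. Values just inside that limit were means of 16.01 in the castrated group for Mthfs and Gm32219, and values just outside were 15.996 for Tfap2d and 15.99 for Klra7. The other arrays of the series hold efferent ducts of both groups and both tissues of castrated mice given testosterone propionate or estradiol. In every group the animals were adult males of strain 129BL/6, and the vehicle was 100 µL of 10% ethanol in sesame oil, injected on day 14 after surgery. Tissue was collected 12 hours after the injection. Total RNA was taken with TRIzol, and 10 µg was labelled with the One-Cycle kit for Affymetrix arrays. The labels do not say that the 2 arrays of a group came from separate animals or how many animals gave each RNA. The p-values therefore measure only the spread between arrays of the same group, which may be technical. That spread was estimated over all caput arrays, including those given testosterone propionate or estradiol, and not only over the 4 arrays compared.

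The caput is the head of the epididymis, the coiled duct in which sperm leaving the testis mature. Its principal cells secrete proteins into the lumen, many of which bind to sperm, and take up or release ions, amino acids and lipids. Androgen reaches these cells through the blood and through fluid from the testis, which also brings sperm and growth factors to the first part of the duct. Castration removes all of these together, so loss of androgen and loss of testicular fluid and sperm cannot be told apart here. In bulk tissue, fewer cells of a type and less RNA per cell cannot be told apart.

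The 4 arrays had the deposited mean of about 125 after trimming, and between 69.1% and 75.9% of their probe sets were above background, the highest Bacillus control on each array (7.82 to 12.3 in intensity). Both arrays of a group correlated with r = 0.944 (sham) and 0.948 (castrated) over the log2 values of all genes, and arrays of different groups with 0.901 to 0.915. Actin's 3' over 5' ratio, a measure of transcript shortening, was 0.79 and 1.02 (log2) on the castrated arrays and 0.64 and 0.75 on the sham arrays, without overlap, and its part in the results was not tested. The sham arrays carried the labelled tissue's defining transcripts: Lcn5, a lipocalin of the proximal epididymis, read 11767 and 12020.5, Gpx5, its secreted glutathione peroxidase, read 8388 and 8586, and Adam7, a membrane protein of caput principal cells, read 8643 and 8372. Those values place the 3 genes far above the background of both sham arrays.

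Secreted and sperm-coating proteins of the caput, with Rnase10, Lcn9 and Adam7 among them, had some of the deepest falls after castration. Of 13882 genes, 2431 passed limma's test at an adjusted p under 0.05, 1389 higher and 1042 lower, which is 17.5% of them (10.0% higher and 7.51% lower). Over all 18193 genes tested the share was 14.0%, or 7.90% higher and 6.12% lower. These percentages are the background for every list given here, as is the median log2 difference (castrated minus sham) over all genes, 0.06. Among genes above 16 in both groups, which could not enter through 1 group alone, 2201 passed (17.7%, with 10.4% higher and 7.27% lower).

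The falls reached further than the rises. Of the genes that passed with all 4 arrays above background, 522 were at least 2-fold lower and 582 at least 2-fold higher, but 54 were at least 10-fold lower against 7 higher, 9 at least 50-fold lower and 4 at least 100-fold lower, with 0 higher at either size. Among the 100 genes of highest intensity in the sham group 33 fell and 0 rose. Among the 100 of highest intensity in the castrated group 5 fell and 10 rose. Intensity depends on the probe as well as on the transcript. Both rankings also used values that form the difference itself. This favours falls in the sham ranking and rises in the castrated ranking, so these counts do not bear on which direction reached further. All 2431 genes that passed had no overlap between the groups, but non-overlap was common, at 71.7% of the 13882 genes, 71.2% of those above 16 in both groups and 62.7% of all genes.

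**Figure D1:**
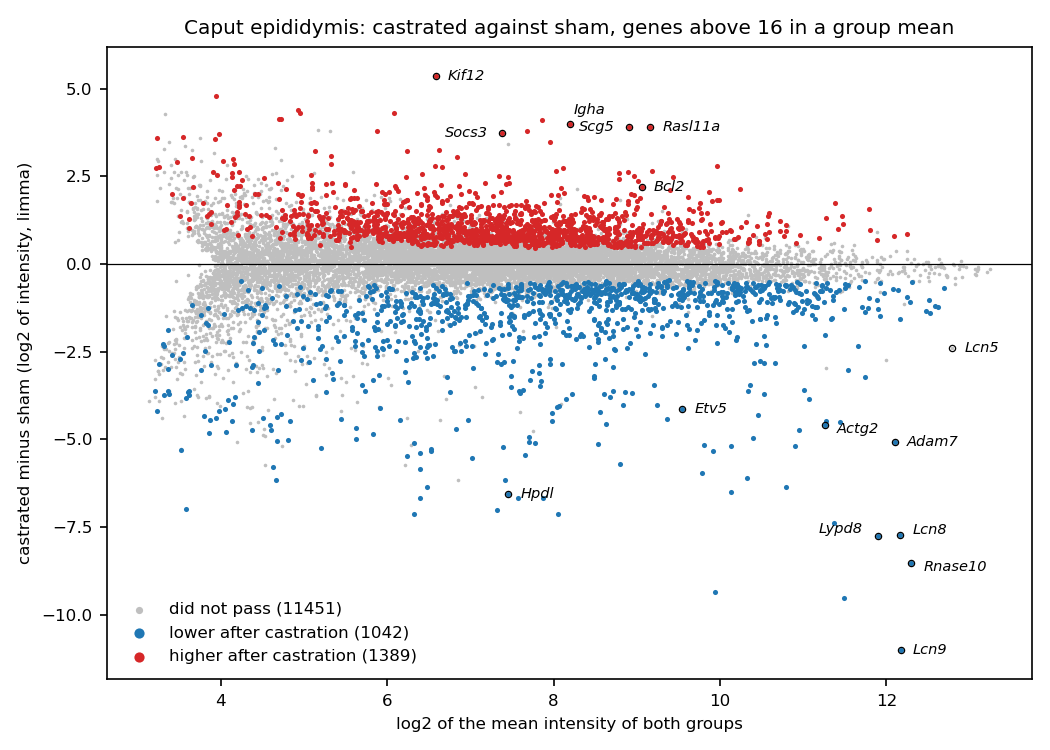
Each point is 1 of the 13882 genes, with the log2 of its mean intensity over both groups on the x axis and the log2 difference of castrated minus sham on the y axis. The 1042 genes that fell (blue) spread further from 0 than the 1389 that rose (red), and several of the deepest falls lie at high intensity.

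The test leaned on the other caput arrays for its estimate of the spread. With only the 4 arrays compared, 0 genes passed limma's test, while 5325 had an unadjusted p under 0.05. With 1 array left out, which leaves its group with a single array assumed to vary like the others, 505 of 18193 genes passed without castrated replicate 1, 371 without castrated replicate 2, 326 without sham replicate 1 and 523 without sham replicate 2, against 2550 with all arrays. Rises outnumbered falls with all arrays, and the order turned without castrated replicate 1 (189 higher, 316 lower), without castrated replicate 2 (120 and 251), without sham replicate 1 (156 and 170) and with a gene's probe sets averaged (735 and 768).

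Several of the deepest falls were in genes of secreted and sperm-surface proteins. Rnase10, a secreted member of the RNase A family, read 10312 and 9692 on the sham arrays and 24.4 and 29.7 on the castrated arrays, a 372-fold fall (adjusted p = 0.000469). Lypd8, a membrane-anchored protein with a LY6 domain, went from 7389 and 7833 to 36.4 and 33.8 (adjusted p = 0.000469). Adam7 went from the sham values above to 219 and 291, a 33.7-fold fall. For each of the 3 genes both castrated arrays lay far below both sham arrays. Pate5, a small cysteine-rich protein, fell from 5495 and 5055 to 26.6 and 37.3, and Crisp4, a cysteine-rich secretory protein found on sperm, from 2007 and 2415 to 22.3 and 26.1. Adam28, which encodes a metalloprotease and disintegrin, fell from 3431 and 3557 to 40.2 and 45.6. Of 30 measured genes for sperm-surface and sperm-maturation proteins 16 fell and 0 rose, with a median of -1.64 on the log2 scale. When 1 array was left out 9 to 12 of them fell.

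Lipocalins, carriers of small lipophilic molecules, divided into lost and partly kept members. Lcn8 fell from 9349.5 and 8970.3 to 63.7 and 28.6 and Lcn12 from 2003 and 1773 to 42.5 and 51.0. Lcn9 read 9128 and 9289 on the sham arrays and was below background on both castrated arrays, so its fall was at least 974-fold (adjusted p = 0.00484). Obp2a, named for odorant binding, fell 14.3-fold from 493 and 567. Ptgds, the lipocalin-type prostaglandin D synthase, and Lcn2, a binder of iron-carrying siderophores, stayed bright: Ptgds read 1854 and 2249 on the castrated arrays after a 2.79-fold fall, and Lcn2 read 3832 and 3676 after a 2.36-fold fall. Lcn5 read 2215 and 2289 on the castrated arrays, lower on both than on either sham array, but did not pass (log2 difference -2.40, 95% interval -4.07 to -0.73, adjusted p = 0.0716). Its sham values, given above, and its castrated values each lay close together. The interval rests on a spread estimated over all caput arrays, the hormone-treated ones included. In all, 6 of 12 lipocalins fell and 0 rose (median -1.36), and 4 fell in every fit with 1 array left out.

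Beta-defensins, small antimicrobial peptides some of which coat sperm, had 6 falls and 0 rises among 20 measured genes (median -0.93), and 2 to 5 falls with 1 array left out. Defb21 fell from 3757 and 3664 to 86.3 and 118 and Defb41 from 5113 and 5536 to 199 and 275. Defb42 fell 2.10-fold and still read 3377 and 3048 on the castrated arrays. Of the 14 beta-defensins above 16 in a group mean, 9 were lower and 5 higher, whether or not they passed. Among 42 protease inhibitors 7 fell and 2 rose, and with 1 array left out 2 to 3 fell and 0 to 2 rose. The Kazal-type inhibitors Spink10, Spink2 and Spink5 were among the falls. Spink10 went from 2478 and 2578 to 35.1 and 38.4, Spink5 from 2448 and 2764 to 103 and 67.2, and Spink2 from 3859.9 and 3755 to 197 and 106. Spint1, a membrane inhibitor of hepatocyte growth factor activator and matriptase, rose instead, from 445 and 452 to 1575 and 1586 (3.53-fold, adjusted p = 0.00700). The cystatin Cst11 read 6442 and 6086 on the sham and 4177 and 4742 on the castrated arrays and did not pass (adjusted p = 0.225).

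**Figure D2:**
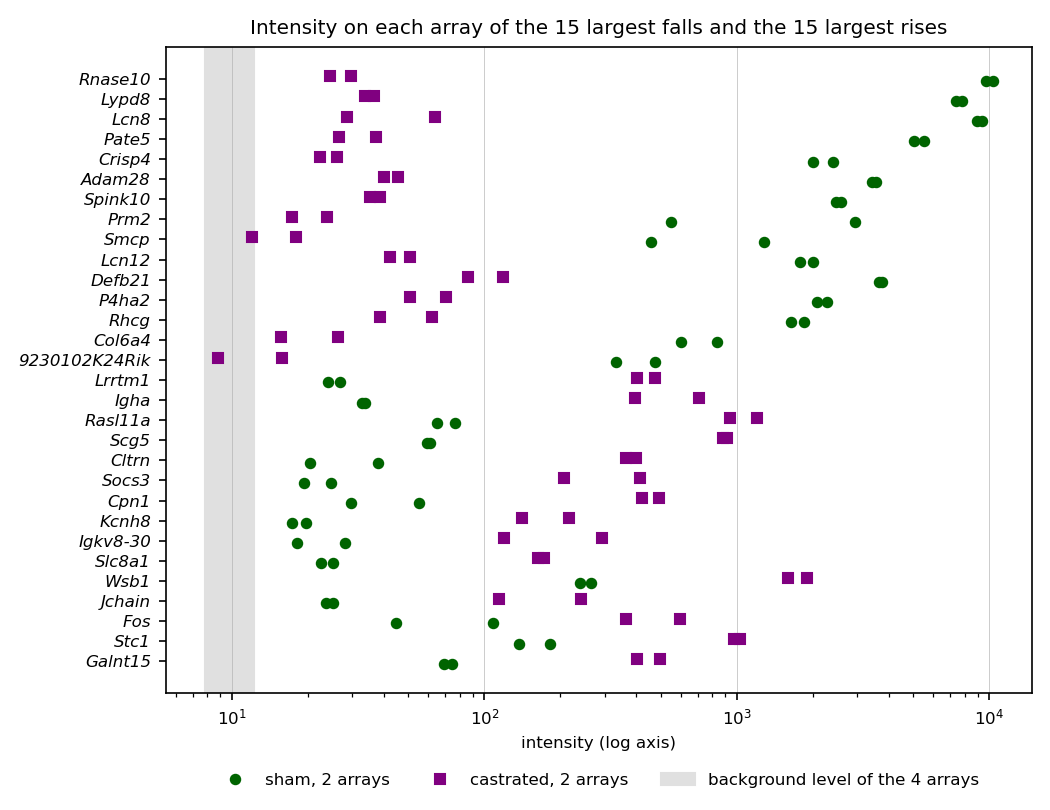
Intensity on each of the 4 arrays (log axis) for the 15 largest falls and the 15 largest rises among genes that passed with all 4 arrays above background. Circles are the 2 sham arrays and squares the 2 castrated arrays, and the grey band is the range of background, 7.82 to 12.3. Rnase10, Lypd8 and Lcn8 are among those whose squares lie furthest from their circles.

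Antioxidant and sperm-modifying enzymes also fell in part. Of 41 glutathione and antioxidant enzymes 11 fell and 1 rose (median -0.32). Gpx6 fell 11.1-fold, from 445 and 392 to 49.4 and 28.6, while Gpx5 fell 2.62-fold and still read 3421 and 3073. The glutathione transferase gene Gstm6 fell from 665 and 765 to 181 and 212, and Gpx7, a peroxidase of the endoplasmic reticulum, fell 2.40-fold. Of 33 enzymes that add or remove sugars 10 fell and 3 rose (median -0.43). The sialyltransferase gene St3gal2 fell from 1253 and 921 to 92.0 and 103. St6galnac2, another sialyltransferase, fell 4.31-fold and the fucosyltransferase gene Fut4 fell 4.15-fold. The lysosomal hydrolases Gla, which removes galactose, and Aga, which cleaves the sugar-asparagine bond, fell 2.55-fold and 2.46-fold. Fut9, a second fucosyltransferase, rose from 20.3 and 16.5 to 52.5 and 51.3. With 1 array left out 1 to 3 of the sugar enzymes and 1 to 3 of the antioxidant enzymes fell, St3gal2 and Gstm6 in every such fit.

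Transporters moved in both directions. Slc38a5, a glutamine transporter, read 6089.8 and 6290.0 on the sham arrays and fell 9.35-fold to 789 and 555. The glutamate transporter gene Slc1a1 fell from 2426 and 2139 to 499.8 and 447, the large neutral amino acid transporter gene Slc7a5 3.10-fold, and the dicarboxylate transporter gene Slc13a2 6.22-fold. Slc43a1, another carrier of neutral amino acids, rose from 28.0 and 14.2 to 65.5 and 80.0. Altogether 10 of 42 genes for amino acid, carnitine and sugar transport fell and 6 rose, so the median was near 0 (-0.08). Among 43 genes for ion, bicarbonate and water transport 6 fell and 7 rose (median 0.15). The bicarbonate cotransporter gene Slc4a4 fell from 646 and 579.8 to 185 and 189, and Aqp9, a water and glycerol channel, from 356 and 389 to 171 and 165. The sodium-calcium exchanger gene Slc8a1 rose from 25.1 and 22.5 to 163 and 172 on its brightest probe set, while 1 of its 4 probe sets went the other way (-1.44 on the log2 scale). Slc26a3, a chloride-bicarbonate exchanger, rose 2.97-fold. With 1 array left out 1 to 5 genes of the first list fell and 0 rose, and 1 to 2 of the ion and water list fell and 1 to 3 rose.

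Genes of the machinery that makes secreted proteins included many small falls. In the list of the translocon, N-glycosylation and vesicle transport 23 of 64 genes fell and 1 rose, with a median of -0.46. Ssr4, of the translocon-associated complex, fell 2.42-fold from 3038 and 2816 to 1243 and 1174, Tmed3, a cargo receptor between the endoplasmic reticulum and Golgi, 2.33-fold, and the channel subunit gene Sec61b 1.91-fold. Rab26, a small GTPase of secretory granules, stood apart at 577 and 479 against 7.86 and 1.76, with 1 of the castrated arrays above background. The single rise was Sec62, which helps proteins into the endoplasmic reticulum, from 736 and 734 to 1203 and 1269. Of 37 genes for folding and stress in the endoplasmic reticulum 14 fell and 0 rose (median -0.59). Manf, a secreted factor induced by unfolded proteins, fell from 4049.9 and 4056 to 1739.8 and 1625, and the disulfide isomerase gene Pdia5 from 539.8 and 599 to 186 and 171. Sdf2l1 fell 3.46-fold and Fkbp11, a proline isomerase, 2.66-fold. The main chaperone gene of that compartment, Hspa5, read 6632 and 6871 on the sham and 4811 and 4942 on the castrated arrays and did not pass (adjusted p = 0.0907). With 1 array left out, 1 to 3 of the folding genes and 0 to 1 of the translocon and vesicle genes passed as lower, and with a gene's probe sets averaged 10 and 11 did.

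In cholesterol synthesis 14 of 19 genes fell, 0 rose, and the median was -1.43. Tm7sf2, a sterol reductase, read 502 and 458 on the sham and 63.4 and 70.9 on the castrated arrays, 7.15-fold lower (adjusted p = 0.00301). Nsdhl, a sterol dehydrogenase, fell from 1392 and 1334 to 292 and 319.7, the methylsterol oxidase gene Msmo1 from 1299 and 973 to 321 and 246, and the lanosterol demethylase gene Cyp51 3.97-fold. The 3 genes Tm7sf2, Nsdhl and Msmo1 passed in every fit with 1 array left out, in which 3 to 6 genes of the list fell. Srebf2, which encodes the factor that drives this pathway, read 346 and 325 against 292 and 274 and did not pass (adjusted p = 0.577). In the fatty acid and lipid list 8 of 37 fell and 0 rose (median -0.23), and 0 to 1 fell with 1 array left out. The citrate lyase gene Acly fell from 2881 and 3254 to 1295 and 1369, the elongase gene Elovl6 2.08-fold, and Mlxipl, a glucose-sensing transcription factor, 2.16-fold.

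Enzymes of small-molecule synthesis gave a few large falls. Cad, which catalyses the first steps of pyrimidine synthesis, read 2636 and 2697 on the sham arrays and 135 and 133 on the castrated arrays (19.9-fold, adjusted p = 0.00231). The polyamine enzymes ornithine decarboxylase, Odc1, and spermidine synthase, Srm, fell 1.86-fold and 1.83-fold. Across that list 4 of 24 fell and 2 rose, and the median was -0.03, and 1 to 2 fell with 1 array left out. Phgdh, the entry enzyme of serine synthesis, fell from 995 and 1191 to 359.9 and 336, and Psph, which completes that path, from 242 and 279 to 109 and 86.2. Of 22 genes of amino acid synthesis and known targets of the transcription factor ATF4 8 fell and 1 rose (median -0.31), and 0 fell with 1 array left out. Hexokinase 2, Hk2, fell from 794 and 803 to 221 and 222, while Pdk4, which restrains glucose oxidation, rose from 21.4 and 20.1 to 64.7 and 92.3. Over 47 genes of glycolysis and the respiratory chain 8 fell and 2 rose, and 1 fell in each fit with 1 array left out. P4ha2, a prolyl hydroxylase, fell 36.3-fold from 2073 and 2279 to 70.6 and 50.8, and Hpdl, a dioxygenase-like protein, fell at least 36.7-fold from 369 and 327 to below background. Other genes that went below background on both castrated arrays were Lrcol1, a colipase-like protein, at least 206-fold lower, the neurotensin receptor gene Ntsr1, at least 17.4-fold, and Ppy, pancreatic polypeptide, at least 18.4-fold.

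**Figure D3:**
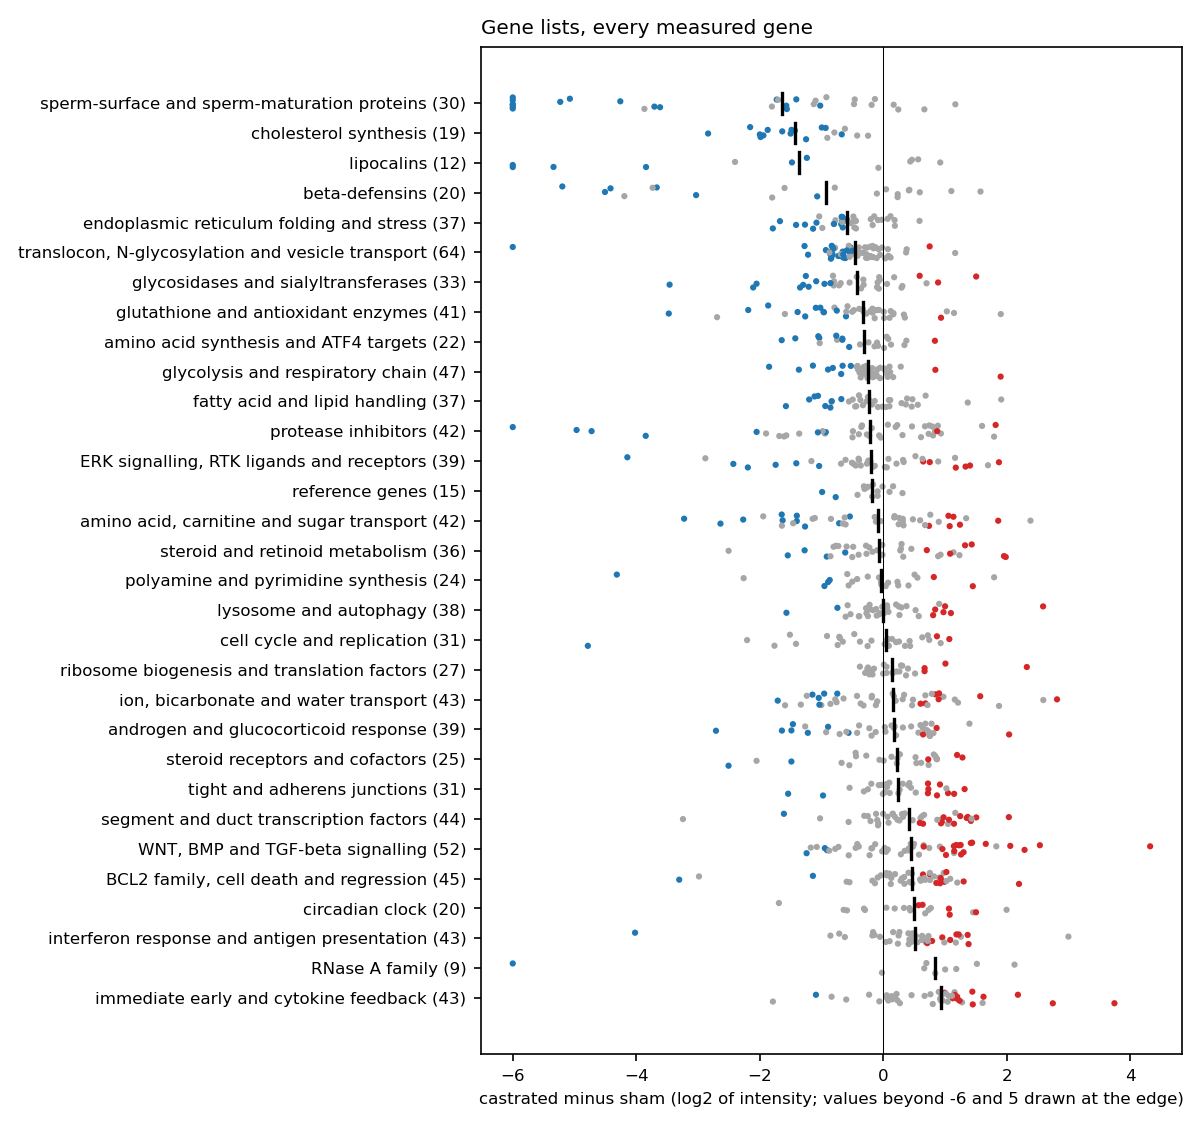
Log2 difference of castrated minus sham for every measured gene of 31 lists, with the number measured in brackets; blue points fell, red points rose, grey points did not pass, and black bars are list medians. Sperm-maturation proteins and cholesterol synthesis lie furthest left, with medians of -1.64 and -1.43, and the immediate early list furthest right, with 0.93.

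Genes known to respond to androgen moved in both directions. Fkbp5, a cochaperone and common target of androgens and glucocorticoids, fell from 1540.2 and 1715 to 602 and 557 (2.81-fold, adjusted p = 0.00539). Slc45a3, a prostate-expressed transporter, fell 6.54-fold from 448 and 415, and the efflux pump gene Abcc4 3.12-fold. Tmprss2, a serine protease gene that androgen induces in prostate, rose here, from 45.9 and 58.8 to 210.5 and 216 (4.10-fold). In that list 7 of 39 fell, 4 rose, and the median was 0.17, with 2 to 4 falls and 0 to 1 rises when 1 array was left out. Of the receptors and cofactors themselves (25 measured) 4 rose and 2 fell. The glucocorticoid receptor gene Nr3c1 rose from 278 and 259 to 638 and 591, the thyroid hormone receptor gene Thra 2.43-fold, and Esr1, the estrogen receptor alpha gene, from 567 and 511 to 903 and 1065. Gper1, a membrane receptor proposed for estrogen, fell from 161 and 137 to 29.0 and 23.6. These 3 rises did not pass in any fit with 1 array left out, while Fkbp5, Abcc4 and Gper1 passed in all of them.

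Retinoid genes moved in both directions. Stra6, the cellular importer of retinol, rose from 36.9 and 39.8 to 142 and 162, and Rdh10, which oxidises retinol, from 119 and 150.4 to 596 and 451. Dhrs3, which reduces retinal back to retinol, rose 2.70-fold. Of the enzymes that make retinoic acid, Aldh1a3 rose 2.50-fold to 275 and 159, and Aldh1a1 fell 2.42-fold from 5450.3 and 5391 to 2137 and 2349. Over the 36 genes of steroid and retinoid metabolism 6 rose and 4 fell (median -0.07), and 0 to 2 rose with 1 array left out.

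Growth factor signalling held both falls and rises, 6 of each among 39 genes. Etv5, a transcription factor switched on by the pathway, went from 1429 and 1385 to 90.3 and 70.0 (17.7-fold, adjusted p = 0.00443). The ERK phosphatase genes Dusp6 and Dusp4, which the pathway induces as brakes, fell from 813 and 615 to 133 and 129.9 and from 93.5 and 110.0 to 25.4 and 19.4. Ros1, the receptor kinase on which the first segment of the mouse epididymis depends, fell 2.66-fold from 735 and 726. Hgf, hepatocyte growth factor, rose from 21.8 and 18.9 to 82.2 and 67.0, and its receptor gene Met from 205 and 199.9 to 491 and 528. The receptor genes Fgfr2 and Egfr rose 2.65-fold and 2.25-fold. Leaving out 1 array left 3 to 4 falls and 1 to 2 rises in the list. Etv5, Dusp6 and Dusp4 fell in all of those fits.

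In the list of WNT, BMP and TGF-beta signalling 17 of 52 genes rose and 3 fell (median 0.45), and 2 to 5 rose with 1 array left out. Several of the rises encode secreted inhibitors, and those are described here, while another of the rises encodes a WNT ligand. Sostdc1, which blocks BMP and WNT ligands, was below background on both sham arrays and read 99.2 and 156 on the castrated arrays, at least 10.9-fold higher. Its 2 sham arrays differed, at 3.30 and 11.8, and its log2 difference ranged from 3.40 to 5.24 with 1 array left out. Wif1, a WNT inhibitor, rose at least 2.28-fold, to 22.2 and 30.7. Fst, follistatin, which binds activins, rose from 40.5 and 33.2 to 151 and 154, and Dkk3 from 98.8 and 97.4 to 324 and 296. Sfrp2, a secreted WNT-binding protein, rose 2.71-fold.

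Of 44 transcription factors of duct segments and cell types 13 rose and 1 fell (median 0.41). Klf5, a factor of proliferating epithelium, went from 34.4 and 29.9 to 115 and 149.8, and Meis1 from 61.9 and 72.6 to 171 and 171. Cebpd, induced in acute-phase responses, rose 2.67-fold and Irx3 2.58-fold. The single fall was Runx1, from 141 and 119 to 50.5 and 35.7. Pax8, a lineage factor of the duct epithelium, read 488 and 529.9 on the sham and 672 and 584 on the castrated arrays and did not pass (adjusted p = 0.174). When 1 array was left out 0 to 2 of the list rose, and 6 with a gene's probe sets averaged.

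Stress-response and survival genes made up another set of rises. Socs3, the feedback inhibitor of cytokine signalling, went from 19.3 and 24.7 to 413 and 206 (13.4-fold, adjusted p = 0.00801). Its 2 castrated arrays differed but both lay above the sham arrays. Fos, an immediate early gene, read 44.6 and 108 on the sham and 363 and 596 on the castrated arrays (adjusted p = 0.0489). Nr4a2, an orphan nuclear receptor, rose 4.53-fold, and Zfp36l1, which speeds decay of short-lived mRNAs, from 805 and 841 to 2251 and 2238. Of 43 immediate early and cytokine feedback genes 12 rose and 1 fell (median 0.93), 2 to 5 of them higher with 1 array left out. Bcl2, the founding survival gene of its family, rose from 183 and 199 to 827 and 923 (4.58-fold), and Bmf, a death-promoting member, 1.98-fold. Igfbp3, which binds insulin-like growth factors, rose 2.46-fold and the protease inhibitor gene Timp1 2.03-fold. Mmp7, a matrix metalloprotease gene, fell from 404 and 359 to 30.6 and 48.5. Over 45 genes of cell death and tissue regression 9 rose and 2 fell, and with 1 array left out 1 to 2 rose, Bcl2 in each case, and 1 with a gene's probe sets averaged.

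Lysosomal genes were divided, with 6 of 38 higher, 2 lower and a median of -0.00, and 1 was higher in each fit with 1 array left out. Cathepsin Z, Ctsz, rose from 119 and 134 to 703 and 813 and cathepsin H, Ctsh, fell from 2205 and 2067 to 688 and 752. The autophagy kinase gene Ulk1 rose 2.13-fold, as did Foxo1, a transcription factor of fasting responses, at 2.00-fold. Among junction genes Cldn2, a claudin that forms cation pores, fell from 3912 and 3827 to 1319 and 1339 and Cldn3, a sealing claudin, from 2178 and 2065 to 1108 and 1049. Cldn8 rose from 818 and 765 to 1501 and 1782 and Cdh16, kidney-specific cadherin, from 1764 and 1777 to 3946 and 3891. In all 8 of 31 junction genes rose and 2 fell, and with 1 array left out 0 to 1 rose while Cldn2 still fell in each fit. Of 20 genes of the circadian clock 5 rose and 0 fell (median 0.50), and 0 to 1 rose with 1 array left out. Dbp, a transcription factor that the clock drives, went from 255 and 222 to 543 and 836 and Nr1d2, a nuclear receptor of the clock's feedback loop, from 881 and 915 to 1732 and 2063. The labels give no hour of collection, and whether it differed between groups was not tested.

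Immune genes moved in both directions. Of 43 interferon and antigen presentation genes 8 rose and 1 fell (median 0.51), with 0 to 1 higher when 1 array was left out. Gbp7, an interferon-induced GTPase, rose from 142 and 139.9 to 415 and 325 and Ifi47, another, from 63.4 and 59.6 to 170.2 and 147. The fall was Isg20, an exonuclease gene, from 772 and 953 to 44.7 and 62.4 (16.2-fold). Ido1, which degrades tryptophan and which interferon induces in many cells, read 4947 and 4529 on the sham arrays and fell 22.3-fold to 173 and 261. Igha, the constant region of immunoglobulin A, rose from 32.8 and 33.7 to 396 and 709.5, and Jchain, which joins immunoglobulin A into dimers, from 25.2 and 23.6 to 115 and 241. The second castrated array was the higher for both, and both castrated arrays were above both sham arrays. Of 12 plasma cell markers these 2 rose and 1 fell, Fkbp11, given above, and the list median was 0.16.

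The largest rises otherwise came from genes of varied roles. Scg5, a chaperone of prohormone convertase, read 60.8 and 59.5 on the sham and 883 and 915 on the castrated arrays (14.9-fold, adjusted p = 0.00105). Rasl11a, a Ras-like GTPase, rose from 65.2 and 76.5 to 944 and 1207, and Lrrtm1, a neuronal adhesion protein, from 26.7 and 24.0 to 401 and 476. Cltrn, collectrin, a partner of amino acid transporters, rose 13.8-fold to 366 and 399.6. All 4 genes were near or below 80 on the sham arrays. Cpn1, the catalytic subunit of carboxypeptidase N, rose 11.3-fold, and Stc1, the secreted hormone stanniocalcin, rose from 138 and 183 to 978 and 1034. Wsb1, part of a ubiquitin ligase, rose from 265 and 240.3 to 1596 and 1896. Kif12, a kinesin, was below background on both sham arrays and read 193 and 181 after castration, at least 16.3-fold higher. Kng1, kininogen, rose in the same way at least 9.38-fold, and Galnt13, which starts mucin-type sugar chains, at least 6.23-fold.

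Marker lists describe what else the samples held. The 10 principal cell markers summed to 71668 and 70619 in intensity on the sham arrays and to 14342 and 14261 on the castrated arrays, and 7 of them fell, 4 to 5 with 1 array left out. Of 12 basal cell markers 1 rose and 0 fell, and Krt5, their defining keratin, read 207 and 199 against 295 and 256 (adjusted p = 0.478). Clear and narrow cell markers were mixed. The proton pump subunit gene Atp6v1b1 rose from 26.1 and 27.7 to 113 and 81.8 and the receptor gene Kit from 215 and 155 to 549 and 488, whereas the ammonia channel gene Rhcg fell from 1642 and 1846 to 62.2 and 38.4 and Asb11 from 644 and 778 to 50.7 and 28.0. In that list 7 of 12 rose and 3 fell, but with 1 array left out 1 to 2 rose and 2 fell. Cilium genes had 7 rises and 2 falls among 22: Dynlrb2, a dynein chain, rose from 103 and 109.9 to 292 and 441 and Foxj1, the master factor of motile cilia, from 43.0 and 42.1 to 123 and 118, while Ccno, needed to multiply centrioles, fell from 294 and 287 to 43.9 and 36.2. Leaving out 1 array left 0 to 4 rises and 2 falls of cilium genes. The part of changed cell proportions in any of these results was not tested.

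Sperm transcripts were high on 1 sham array. The 29 germ cell markers summed to 10029 on sham replicate 1 and 3051 on sham replicate 2, against 824 and 821 on the castrated arrays. Prm2, a protamine that packs sperm DNA, read 2939 and 546 on the sham arrays and 23.8 and 17.3 on the castrated arrays, and Prm1 read 1154 and 308 against 47.8 and 44.1. Tnp2, a transition protein, was below background on both castrated arrays, at least 26.7-fold lower. In the fit with all arrays 10 of the list fell and 1 rose, but only 0 to 1 fell with 1 array left out.

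Stromal markers held a large change in a single gene. Actg2, a smooth muscle actin, fell from 4982 and 4426 to 210.3 and 178 (24.2-fold, adjusted p = 0.00231), while Acta2, the other smooth muscle actin, read 3862 and 3699 on the sham and 4094 and 4238 on the castrated arrays and did not pass (adjusted p = 0.679). Over the 15 smooth muscle markers 1 fell and 1 rose, with a median of 0.22. Fibroblast genes changed in both directions, with 4 of 24 higher, 3 lower and a median of -0.24. With a gene's probe sets averaged, 2 of them were higher and 1 lower. The collagen gene Col1a1 fell from 294 and 241 to 88.2 and 81.3 and Sparc, a matrix-binding glycoprotein, fell 2.27-fold on its brightest probe set. At another Sparc probe set the log2 ratio of the castrated to the sham mean was only -0.12. Dcn, decorin, rose from 3227 and 3167 to 5514 and 5602. Macrophage and dendritic cell markers summed to 9027 and 8932 on the sham arrays and 11008 and 11577 on the castrated arrays, with 6 rises and 1 fall among 30, but 0 in either direction in each fit with 1 array left out and 2 rises with a gene's probe sets averaged. Adipocyte markers were uneven within the castrated group, at 1085 and 4612 against 1875 and 1486 on the sham arrays, and 0 of 12 passed either way. Of 13 nerve and Schwann cell markers 4 rose and 2 fell (median 0.74). The falls were S100b, at least 5.72-fold, and Uchl1, from 123 and 159 to 19.9 and 24.8. Mbp, myelin basic protein, was 1 of the rises, from 86.3 and 73.9 to 167 and 273. Of 15 genes often used as references 2 fell: Hprt, of purine salvage, from 1789 and 1815 to 1093 and 1019, and Tfrc, the transferrin receptor gene, from 378 and 415 to 209.7 and 189.

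**Figure D4:**
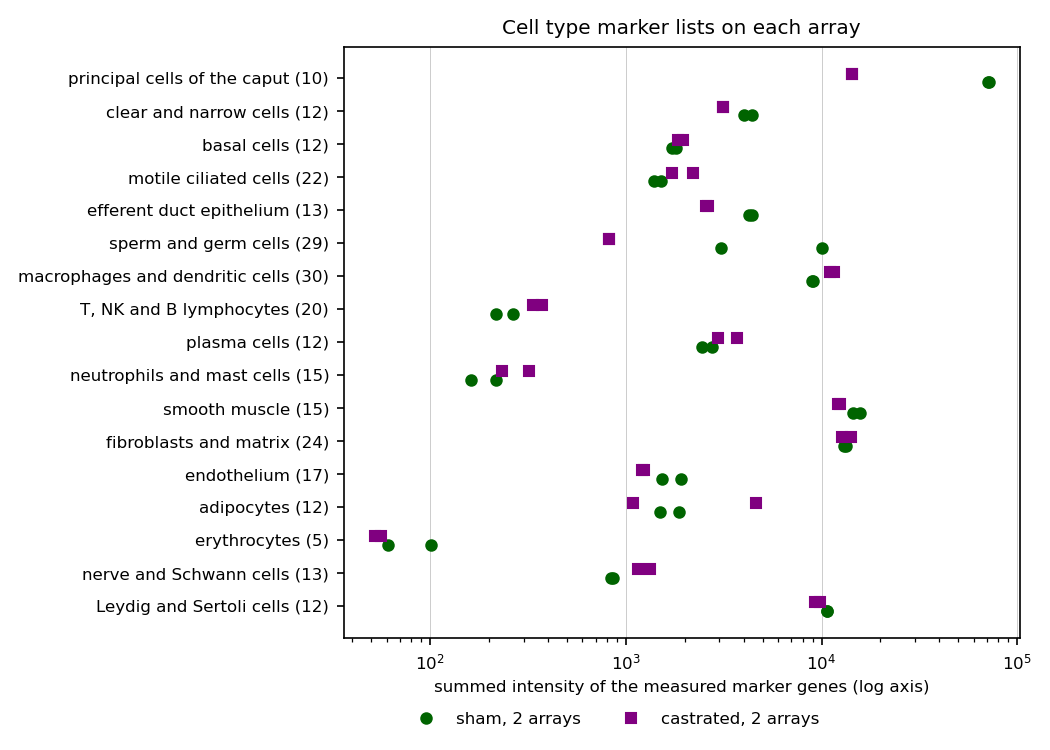
Summed intensity (log axis) of the measured genes of 17 cell type marker lists, with their number in brackets, for each of the 2 sham arrays (circles) and 2 castrated arrays (squares). Principal cell and sperm markers are lower on both castrated arrays than on both sham arrays, sham replicate 1 holds the highest sperm sum, and castrated replicate 2 the highest adipocyte sum.

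Neighbouring genes sometimes moved together. Only measured genes were placed in the RefSeq order of GRCm38.p6. Genes without a value were skipped, so adjacent means next to each other among measured genes. There were 11 runs of at least 3 adjacent genes that all moved at least 2-fold the same way and passed. Of these runs 6 were lower and 5 higher. The longest held 5 armadillo-repeat genes of the X chromosome, Armcx4, Armcx1, Armcx6, Armcx3 and Armcx2, and all fell. Armcx2 went from 2158 and 2289 to 762 and 853, and Armcx6 fell 4.12-fold. A run of 4 guanylate-binding protein genes, Gbp7, Gbp3, Gbp2b and Gbp2 rose, and whether these related genes share probe signal was not tested. Lcn12 and Ptgds formed a run of falls with Clic3, an intracellular chloride channel gene, at 64.1 and 94.1 against 25.9 and 15.4. Ido1 headed another with the sperm membrane genes Adam18, Adam3 and Adam5, which were dim: Adam5 read 59.1 and 30.5 against 14.5 and 12.9. Another run of falls held Med9os, Med9, Rasd1 and Pemt, of which Pemt, a phosphatidylcholine-making enzyme, fell 7.18-fold from 662 and 609. How often adjacent genes move together by chance was not tested.

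Promoters were read for groups of genes that moved together, since the RefSeq table gives 250 bases before and 50 after each start (GRCm38.p6). The ER stress element, read here as CCAAT, any 9 bases and CCACG on either strand, contains a CCAAT box and is the site through which unfolded proteins induce folding genes. It lay in 4 of 16 promoters (25.0%) of the folding genes that fell, against 0.119% of all 32851 promoters. Of those 14 genes, 13 were in the table. Promoters of the listed folding genes that did not fall were not counted apart. Whether the element goes with the fall, rather than with membership of the list, was not tested. The 4 genes with the element were Creld2, Pdia6, Dnajc3 and Syvn1. Their 250 bases before the start are printed because they carry that element, in capitals, and each gene's fall was modest: Creld2 went from 1344 and 1450.1 to 665 and 605, Pdia6 from 3033 and 2767 to 1382 and 1355, Dnajc3 from 1587 and 1529 to 932 and 1048 and Syvn1 from 518 and 582 to 375 and 319.7. They lie at chr15:88819396-88819645, chr12:17266339-17266588, chr14:118937682-118937931 and chr19:6046326-6046575, all on the + strand, and the element begins 126, 98, 105 and 44 bases before the start.
Creld2: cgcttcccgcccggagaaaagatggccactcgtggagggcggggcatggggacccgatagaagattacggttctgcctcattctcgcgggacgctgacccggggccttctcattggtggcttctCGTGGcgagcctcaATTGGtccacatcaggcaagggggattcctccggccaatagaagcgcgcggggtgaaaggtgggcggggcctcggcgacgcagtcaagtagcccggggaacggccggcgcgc
Pdia6: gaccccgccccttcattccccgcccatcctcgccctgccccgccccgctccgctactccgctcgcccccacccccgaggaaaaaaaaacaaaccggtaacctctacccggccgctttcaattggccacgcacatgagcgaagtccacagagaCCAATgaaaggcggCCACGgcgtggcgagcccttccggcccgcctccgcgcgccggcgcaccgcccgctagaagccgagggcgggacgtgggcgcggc
Dnajc3: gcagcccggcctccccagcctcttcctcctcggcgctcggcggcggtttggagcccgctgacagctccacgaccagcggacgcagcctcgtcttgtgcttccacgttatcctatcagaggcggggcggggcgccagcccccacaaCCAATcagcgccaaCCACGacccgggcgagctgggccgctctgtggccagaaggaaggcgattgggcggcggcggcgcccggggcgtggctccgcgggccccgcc
Syvn1: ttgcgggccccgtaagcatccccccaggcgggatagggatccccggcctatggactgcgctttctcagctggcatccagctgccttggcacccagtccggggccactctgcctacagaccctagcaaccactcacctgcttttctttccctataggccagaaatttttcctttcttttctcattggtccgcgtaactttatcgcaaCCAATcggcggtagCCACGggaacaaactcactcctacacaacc

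Promoters of the cholesterol synthesis genes that fell held the CCAAT box alone (CCAAT on either strand) in 11 of 12 cases (91.7%), against 37.4% of all promoters. The box was also in 81.3% of the promoters of the folding genes that fell. It was in 6 of 6 promoters of the clock genes that rose and in 7 of 14 of the immediate early genes that rose. Promoters of the listed cholesterol genes that did not fall were not counted apart, so whether the box goes with the fall was not tested. The letters ATCAC followed by CCCAC, a form of the sterol regulatory element, were in 0 of the 12 on either strand and in 0.0913% of all promoters, which says only that these letters are not in these windows. Nsdhl is shown for the CCAAT boxes in capitals, which begin 109 and 20 bases before the start at chrX:72918271-72918520 on the + strand.
Nsdhl: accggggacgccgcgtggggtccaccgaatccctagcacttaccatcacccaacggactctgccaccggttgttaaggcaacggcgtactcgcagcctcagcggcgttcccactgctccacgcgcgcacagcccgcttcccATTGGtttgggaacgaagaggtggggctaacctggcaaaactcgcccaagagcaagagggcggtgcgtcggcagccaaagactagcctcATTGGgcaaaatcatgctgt

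For the 122 genes that fell at least 10-fold, 95 had a promoter in the table. The hexamer TGTTCT, the right-hand part of the element that mediates responses to androgens and glucocorticoids, on either strand, lay in 25 of their 112 promoters (22.3%). The share was 19.0% of all promoters, 14.7% of the promoters of all measured genes, 16.2% of those of genes at least 2-fold lower and 13.9% of those of genes at least 2-fold higher. The full element, AGAACA, any 3 bases and TGTTCT, was in 0 of the 112 and in 3 of all 32851. Rnase10 and Lcn9 were the largest falls by the fitted value above background and by lower bound. Both are shown with the hexamer in capitals (TGTTCT or its reverse complement AGAACA). It begins 42 bases before the first of 2 listed starts of Rnase10 (chr14:51007501-51007750, + strand) and 45 bases before that of Lcn9 (chr2:25822903-25823152, + strand). A match of letters describes the sequence and says nothing of binding.
Rnase10: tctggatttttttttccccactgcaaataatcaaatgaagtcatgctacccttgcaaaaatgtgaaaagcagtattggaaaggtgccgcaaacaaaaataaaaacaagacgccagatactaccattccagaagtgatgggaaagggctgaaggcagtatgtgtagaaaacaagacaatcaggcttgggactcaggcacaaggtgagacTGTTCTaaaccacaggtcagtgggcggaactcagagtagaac
Lcn9: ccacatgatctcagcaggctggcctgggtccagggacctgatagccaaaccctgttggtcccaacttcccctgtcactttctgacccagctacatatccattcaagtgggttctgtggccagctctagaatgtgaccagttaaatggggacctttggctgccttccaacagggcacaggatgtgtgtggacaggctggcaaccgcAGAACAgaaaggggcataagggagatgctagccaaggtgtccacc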

How the data were processed

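RNA of caput epididymis was measured on one-colour Affymetrix arrays. The deposited values were linear intensity, made with RMA per the submitters' processing notes, with no version given. RMA output is usually in log2 with equal quantiles, whereas here the scale was linear, quantiles differed between arrays, and the mean after trimming 2% at each end was about 125 throughout. They were used as linear intensity, and log2 was taken here.

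Probe sets with 1 gene symbol in the platform annotation (34945 of 45101) were used, and the brightest over all 16 arrays stood for a gene, which gave 18193 genes. Other probe sets of the gene were above 16 for 1306 of the genes that passed, and for 1087 of these all moved the same way. Among the genes named, 1 probe set that reached 16 went the other way for each of Slc8a1, Acly, Fgfr2 and Nr4a2. Background was the highest of 27 Bacillus control probe sets on each array. Where both arrays of a group were below it, a fold is given as at least the ratio of the other group's mean to that level.

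The difference was fitted with limma 3.58.1 in R 4.3.3 over the 8 caput arrays in 4 groups, with Benjamini-Hochberg adjustment over 18193 genes and a threshold of 0.05. The fit was tested on simulated data. Other steps ran in Python 3.11.15 with pandas 2.3.3, and plots in matplotlib 3.10.9. The number of arrays limits the precision: the median 95% interval of a difference over the 13882 genes was the estimate ± 0.47 on the log2 scale.

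The 13882 genes and the 48 lists (31 of pathways and 17 of cell type markers, 1273 of 1450 genes measured) were chosen with earlier results of these data known. Genes were named by rule: the 15 largest falls and rises with all arrays above background, the 10 largest each way by lower bound, up to 6 genes of a list that passed and up to 3 that did not, members of runs of neighbouring genes, and the fixed genes Esr1, Fkbp5, Gpx5, Lcn5, Crisp1, Cst11, Pax8, Aqp9, Krt5 and Prm1. Crisp1 had no probe set with a single symbol, and another fixed gene is not reported here. Sec62, Met, Fgfr2, Egfr, Dnajc3 and Syvn1 were named after their values were seen. Not every gene the rule allows is described, and promoters were also searched for ETS, STAT, cyclic AMP, AP-1, E-box, D-box and TATA motifs, which are not described. Replicate numbers did not pair the groups: deviations of same-numbered castrated and sham arrays correlated with r = -0.0323. The alternatives were quantile normalization, a filter on the 40% dimmest genes, probe sets averaged per gene, an intensity trend, 4 or 16 arrays, values under 16 set to 16, a replicate block, and each array left out.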

Additional observations from a re-analysis of the deposited data

How the results depend on the processing

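The count of 2550 genes past the threshold (1437 higher, 1113 lower; 2431 of the 13882) depended on the settings. It was 4160 without the 40% dimmest genes (2592 higher; 4160 of the 13882), 4407 with an intensity trend (2588 higher, 1819 lower; 4334 of the 13882), 1503 with a gene's probe sets averaged (735 higher; 1424 of the 13882), and 0 in each direction and among the 13882 with only the 4 arrays compared. Quantile normalization gave 2352, of which 2070 were shared and in the same direction, and 52.4% of its calls were higher against 48.9% with averaged probe sets and 62.3% without the dimmest genes. Replicate numbers did not pair the samples, and a replicate block left 1556 genes past the threshold (813 higher; 1484 of the 13882). With 1 array left out the count was 326 to 523, with 120 to 269 higher, 170 to 316 lower and 289 to 465 of the 13882.

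Of the 176 genes named here that passed, 58 passed in all 4 fits with 1 array left out and 66 in none, and no direction changed under these alternatives where the gene was tested, which without the dimmest genes was 158 of them. An unchanged direction was fixed in advance for most of these alternatives. Groups that do not overlap keep their order when 1 array is left out or low values are raised. Several other fits use the same group means. Only quantile normalization and averaged probe sets could have reversed a direction. Among genes of endoplasmic reticulum folding, 25 instead of 14 fell without the dimmest genes. Cross-hybridising paralogs, as among Gbp, Defb and Gstm genes, and dim probe sets near background limit what single values show.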

Other observations

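Growth-related genes were read in 2 lists. Of 31 cell cycle and replication genes 2 rose and 1 fell (median 0.05 on the log2 scale, against 0.06 over all genes). The fall was Ccnb2, a mitotic cyclin, at 31.0 and 33.4 on the sham arrays and below background on both castrated arrays, at least 3.40-fold lower (limma adjusted p = 0.00475). Of 27 genes of ribosome biogenesis and translation 4 rose and 0 fell. Rrp9, which processes ribosomal RNA, rose from 14.2 and 12.6 to 72.1 and 62.3. Over all genes 14.0% passed, 7.90% higher and 6.12% lower.

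Lymphocyte and vessel markers were dim or mixed. Il7r, the interleukin 7 receptor of lymphocytes, was below background on both sham arrays and read 25.3 and 32.5 on the castrated arrays, at least 2.50-fold higher, 1 of 2 rises among 20 lymphocyte markers. Of 17 endothelial markers 1 fell, the growth factor receptor gene Flt1, from 151 and 129.8 to 65.2 and 45.6, and 0 rose. The endothelial sum was 1919.6 and 1529 on the sham arrays against 1243 and 1215 on the castrated arrays. Markers of efferent duct epithelium, the tissue next to the caput, summed to 4274 and 4406 against 2563 and 2634. Of the 13 markers 1 fell and 2 rose, and 0 passed in any fit with 1 array left out. The fall was Pdzk1, a scaffold protein of apical transporters, from 2558 and 2621 to 452 and 295, which is larger than the fall of the whole sum. Ghr, the growth hormone receptor gene, rose 1.95-fold, and Esr1 is the other rise. Whether the dissection differed between groups was not tested.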
